A study of Homo sapiens with 30 samples.

Results

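A set of 6 ligands by which a tumor cell speaks to immune cells were followed through Omomyc treatment of 2 human cell lines: CD274 (PD-L1), PDCD1LG2 (PD-L2), CD47, CD80, CD86 and CD276 (B7-H3). They were chosen by name as immune checkpoint ligands, with no threshold on their values, and are 6 of the 57992 genes of the RNA-Seq table. Omomyc is a miniprotein derived from the basic helix-loop-helix leucine zipper of Myc, which pairs with Max or with itself and occupies the E boxes that Myc binds. HCT116 cells are a colon carcinoma line. Ramos cells are a Burkitt lymphoma line, a B cell tumor in which MYC is translocated. HCT116 cells were untreated or received Omomyc at 2 or 10 μM for 6 or 24 h, where 2 μM is the dose in the labels and the study's methods give 2.5 μM. Ramos cells were untreated or received 500 nM or 2.5 μM for 6 or 24 h. The 24 h groups carry that time in their titles while another tag reads 4 h, and 24 h was used. Each of the 10 groups had 3 libraries. The methods add a protein transfection reagent, ProteoJuice, to the Omomyc given to HCT116 cells, and whether the untreated cells of these libraries received it is not said. A single untreated group with no stated time serves both time points and both doses of its line, so all comparisons with it share its 3 libraries. Each line stands for 1 tumor, and these cultures hold no T cells or macrophages that could answer the ligands.

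The 6 genes act at 3 kinds of contact. CD274 and PDCD1LG2 bind PD-1 (PDCD1) on T cells and restrain them, and both genes respond to interferon through JAK and STAT proteins. CD80 and CD86 are the classical B7 molecules of antigen-presenting cells, which activate T cells through CD28 and are captured by CTLA4, while CD276 is a B7 relative common on epithelial tumors. CD47 binds SIRPA on macrophages as a "don't eat me" signal and is also a receptor for the secreted protein thrombospondin 1 (THBS1). Myc has been described as an activator of CD274 and CD47 transcription. These comparisons give the RNA of both genes under Omomyc, and binding of Myc was not measured in these libraries.

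Values are RPKM, read counts scaled to gene length and to library size, so levels of different genes can be set side by side per length. Each library's RPKM summed to between 593633 and 1051041 in HCT116 cells and between 783788 and 973736 in Ramos cells, and the read depth is unknown. The highest of these sums belongs to replicate 3 of 10 μM at 6 h in HCT116 cells, where every other library of the line reached at most 836899. The changes of CD274 and CD276 against untreated cells at 10 μM for 6 h are given with and without it. THBS1, the list counts and the shares of all genes for that group are given only with it. Replicates correlated at 0.9884 to 0.9971 on the log2 scale. Of 8 colon epithelium markers, 7 had a median of at least 0.5 RPKM in HCT116 cells (VIL1 did not), and their sum was 1476 to 2348 RPKM there against at most 1.94 in Ramos cells. All 8 B cell markers passed that level in Ramos cells. Markers of T cells summed to at most 0.980 RPKM and those of monocytes to at most 2.26 RPKM in any library. In RNA from whole cultures, fewer cells with a transcript and less of it per cell cannot be told apart.

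In untreated cells the lines shared CD47 and differed in the rest. CD47 had 25.4, 25.9 and 23.2 RPKM in HCT116 cells and 32.7, 26.7 and 25.3 RPKM in Ramos cells, and these ranges overlapped. The log2 difference, HCT116 minus Ramos, was -0.17 (95% interval -0.41 to 0.07, adjusted p = 0.144, limma). With every library rescaled to the same RPKM sum it turned to 0.39 (adjusted p = 0.00885), a scaling that moves the median of all genes in this comparison to 0.62. CD276 had 24.4, 23.8 and 23.0 RPKM in untreated HCT116 cells and was listed at 0 in all 3 untreated Ramos libraries. The order was the opposite for CD86, with 6.68, 6.91 and 4.59 RPKM in untreated Ramos cells and 0 in untreated HCT116 cells. CD274 was present in both lines, at 10.1, 8.39 and 8.94 RPKM in Ramos cells and 1.13, 0.605 and 0.617 RPKM in HCT116 cells. That is a log2 difference of -2.93 ± 0.17 (SE, adjusted p = 2.31e-06) on the log2(RPKM + 0.5) scale, on which all differences below are given. The offset of 0.5 makes the change of a gene near or under 1 RPKM look smaller than it is. Of the 4 members tested between the untreated lines 3 passed the threshold of an adjusted p under 0.05, as did 84.6% of all 15647 genes.

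By GENCODE 29 (GRCh38), CD47 (ENSG00000196776) lies at chr3:108043094-108091862 on the minus strand, CD80 (ENSG00000121594) at chr3:119524293-119559602 on the minus strand and CD86 (ENSG00000114013) at chr3:122055366-122121139 on the plus strand. CD276 (ENSG00000103855) lies at chr15:73683966-73714518 on the plus strand. PDCD1LG2 and CD80 were low everywhere. PDCD1LG2 was listed at 0 in all 15 HCT116 libraries and reached 0.0902 to 0.892 RPKM over the 15 Ramos libraries. CD80 was at most 0.0573 RPKM in HCT116 cells and 0.0763 to 0.756 RPKM in Ramos cells. Both lay under the filter of a mean of 0.5 RPKM in most comparisons. HCT116 cells therefore carried CD47 and CD276 at high level and CD274 at low level, and Ramos cells carried CD47 at high level, CD274 and CD86 at middle level, PDCD1LG2 and CD80 near the filter and CD276 at or near 0. Over all 15 libraries of a line, the coefficient of variation of CD47 was 10.9% in HCT116 and 7.97% in Ramos cells. For CD274 it was 33.8% and 59.6%.

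**Figure D1:**
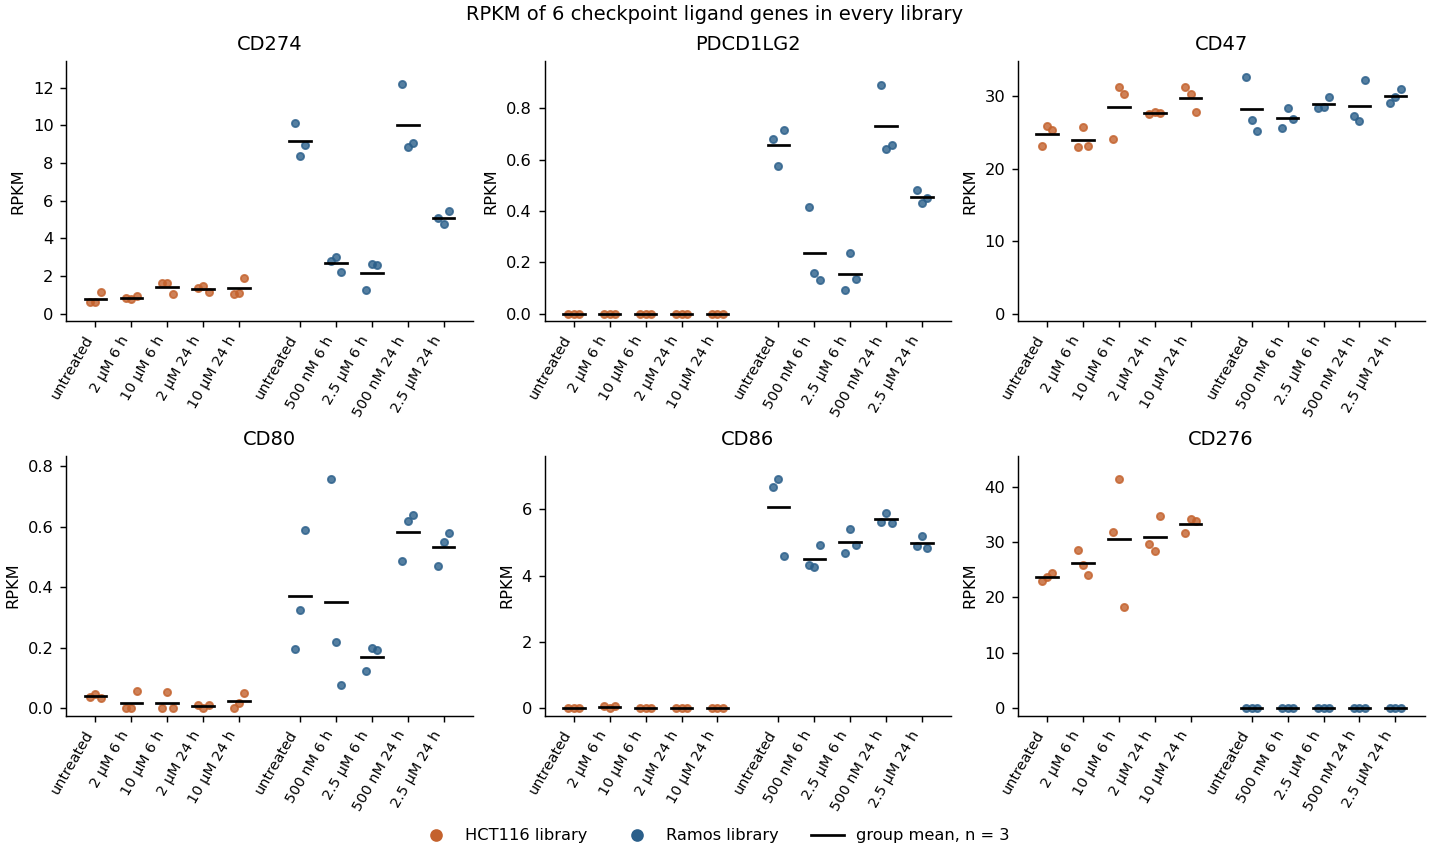
RPKM of the 6 ligands in each library (points) by group, with group means (lines, n = 3), in HCT116 and Ramos cells. CD274 in Ramos cells drops from a mean of 9.15 RPKM to 2.69 and 2.15 at 6 h, while CD47 stays between 23.1 and 32.7 RPKM in all 30 libraries.

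The promoters of CD274 and CD47 are shown because Omomyc binds E boxes. Whether their letters bear on the changes of these genes was not tested. Of the 6 genes, 5 had an entry in the RefSeq promoter table (GRCh38.p14), and PDCD1LG2 did not. In the 250 bases before the start of each gene, both strands were searched for CACGTG (the canonical E box), CACGCG (a noncanonical E box), TTCNNNGAA (the GAS letters of STAT dimers), TGANTCA (AP-1) and the core of the interferon-stimulated response element (ISRE), a repeated GAAA with a gap of NN. The upper line gives the 211 bases before the CD274 gene as GENCODE 29 places it, chr9:5450292-5450502 on the plus strand. Its capitals mark 2 overlapping ISRE matches, 208 and 202 bases before the RefSeq start, followed by 1 GAS match 125 bases before it. The lower line gives chr3:108091032-108091281 on the minus strand for CD47, which lies within the GENCODE gene and outside its exons. Its capitals mark 3 matches to CACGCG, read as CGCGTG on the strand printed, 204, 79 and 17 bases before the start.
CD274 promoter: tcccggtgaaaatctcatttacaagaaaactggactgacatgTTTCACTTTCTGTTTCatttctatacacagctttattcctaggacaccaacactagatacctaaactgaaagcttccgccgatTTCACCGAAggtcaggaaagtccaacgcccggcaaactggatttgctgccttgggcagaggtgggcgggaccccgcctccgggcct
CD47 promoter: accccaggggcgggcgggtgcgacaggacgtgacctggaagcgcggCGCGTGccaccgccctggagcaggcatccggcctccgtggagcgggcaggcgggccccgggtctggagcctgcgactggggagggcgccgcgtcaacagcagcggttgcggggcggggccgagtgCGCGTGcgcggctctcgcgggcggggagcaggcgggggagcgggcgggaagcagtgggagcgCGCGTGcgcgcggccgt
None of the 5 promoters held CACGTG, which 6.34% of all 35116 promoters hold in a window of the same length. CACGCG occurred in 9.72% of promoters, the GAS letters in 6.57% and the ISRE letters in 3.02%. CD80, CD86 and CD276 matched none of the motifs. The GC content was 79.6% for CD47 and 54.8% for CD274, around a median of 58.0% over all promoters. A match describes letters and is no evidence of binding.

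CD274 fell in Ramos cells. Against 10.1, 8.39 and 8.94 RPKM in untreated cells, the libraries at 500 nM for 6 h had 2.82, 3.01 and 2.24 RPKM. At 2.5 μM for 6 h they had 1.26, 2.62 and 2.56 RPKM. All 6 treated libraries were under every untreated one, at 29.4% ± 4.40 and 23.4% ± 8.43 (SD, n = 3) of the untreated mean. The log2 fold changes were -1.60 ± 0.12 (SE, adjusted p = 0.000124) and -1.91 ± 0.21 (adjusted p = 0.000365). CD274 was the 1 member called among 3 tested at each of these doses, beside 23.6% and 27.9% of all genes. The 2 doses did not differ detectably at 6 h (log2 difference -0.31, 95% interval -0.79 to 0.17, adjusted p = 0.694). There 0 of 3 members passed, also at an unadjusted p under 0.05, and 0.429% of all genes did.

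By 24 h CD274 had returned in Ramos cells at the lower dose and partly at the higher one. It had 12.2, 8.85 and 9.04 RPKM at 500 nM, which overlapped the untreated range, and 5.07, 4.78 and 5.43 RPKM at 2.5 μM, which did not. These are 109.54% ± 20.52 and 55.6% ± 3.55 of the untreated mean. The log2 fold change at 500 nM was 0.11 (95% interval -0.18 to 0.40, adjusted p = 0.904), and at 2.5 μM it was -0.79 ± 0.09 (SE, adjusted p = 0.00707). At 500 nM for 24 h 0 of 4 members passed, also at an unadjusted p under 0.05, against a background of 0.0146% of genes, 2 of 13674, while 763 genes had an unadjusted p under 0.05. At 2.5 μM for 24 h CD274 was the 1 of 4, and 4.61% of all genes were called. Between the times, CD274 rose by 1.72 ± 0.14 (adjusted p = 5.84e-05) at 500 nM and by 1.13 ± 0.20 (adjusted p = 0.00415) at 2.5 μM. Between the doses at 24 h it was lower at 2.5 μM by a log2 difference of -0.90 ± 0.12 (adjusted p = 0.00555), the 1 call among 5 members tested beside 4.25% of all genes. The call at 2.5 μM for 24 h missed the threshold without the trend in the variance model (adjusted p = 0.0504), and the dose difference did so without that trend and without the filter on low values (adjusted p = 0.0551 and 0.0735). The falls at 6 h kept their calls in all 10 alternatives and with any 1 library left out. Exact two-sided permutation tests gave 0.1, the smallest p that 3 libraries against 3 allow, wherever groups did not overlap.

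PDCD1LG2 lies 40004 bases after CD274 on the plus strand of chromosome 9, band 9p24.1 (CD274, ENSG00000120217, chr9:5450503-5470566, and PDCD1LG2, ENSG00000197646, chr9:5510570-5571254, GRCh38). Its values were small and had the same order over the Ramos groups. Untreated cells had 0.681, 0.574 and 0.715 RPKM, followed by 0.415, 0.160 and 0.132 at 500 nM and 0.0902, 0.236 and 0.135 at 2.5 μM for 6 h. No treated library at 6 h overlapped the untreated ones, and the means were 35.9% ± 23.8 and 23.4% ± 11.4 of untreated. Being under the filter, it was tested there only in the fit without one, with -0.67 (95% interval -1.09 to -0.26, adjusted p = 0.0723) at 500 nM and -0.83 (95% interval -1.12 to -0.54, adjusted p = 0.0121) at 2.5 μM. At 24 h PDCD1LG2 passed the filter and had 0.892, 0.643 and 0.656 RPKM at 500 nM and 0.481, 0.432 and 0.451 RPKM at 2.5 μM, which are 69.2% ± 3.82 of the untreated mean for the latter. Neither passed the test against untreated cells (adjusted p = 0.966 and 0.443), although the ranges at 2.5 μM and in untreated cells did not overlap. Over the 15 Ramos libraries the log2 values of CD274 and PDCD1LG2 correlated at r = 0.952, a description of libraries that share groups and normalization.

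The genes around CD274 in 9p24.1 were read as its neighbors, in a list of 10 that includes CD274 and PDCD1LG2. JAK2, the kinase behind the interferon gamma receptor, starts 466.1 kb before CD274 and is often amplified together with it in lymphoma. It had 16.9 ± 2.13 RPKM in untreated Ramos cells, 11.7 ± 0.729 at 500 nM and 8.86 ± 0.672 at 2.5 μM for 6 h (SD, n = 3). These are falls, with log2 fold changes of -0.51 (adjusted p = 0.00555) and -0.89 (adjusted p = 0.000377). PLGRKT, a plasminogen receptor that starts 12.6 kb before CD274 on the opposite strand, fell by 0.47 and by 0.48 on the log2 scale (adjusted p = 0.00704 and 0.00363). RIC1, a membrane traffic factor 178.5 kb after the CD274 start, fell by 0.26 and by 0.36 (adjusted p = 0.0115 and 0.00236). ERMP1, next to RIC1, had 0.14 and 0.09 (adjusted p = 0.286 and 0.461). In all, 4 of the 7 genes tested fell at 500 nM and 5 of 7 at 2.5 μM, none rose, and CD274 is one of each count. Of all genes, 23.6% and 27.9% were called, with 1325 of 13614 and 1449 of 13595 falling. The median log2 fold changes of the list, CD274 included, were -0.47 and -0.48, against 0.02 and 0.03 over all genes. The fifth at 2.5 μM was RLN2 (-0.61, adjusted p = 0.0311), which has a near-identical copy in RLN1 that can share its reads. RIC1 at 500 nM lost its call after rescaling to equal sums (-0.16, adjusted p = 0.222). RIC1 and ERMP1 overlap on opposite strands, as do JAK2 and INSL6, and whether the counting used strand is not stated.

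**Figure D2:**
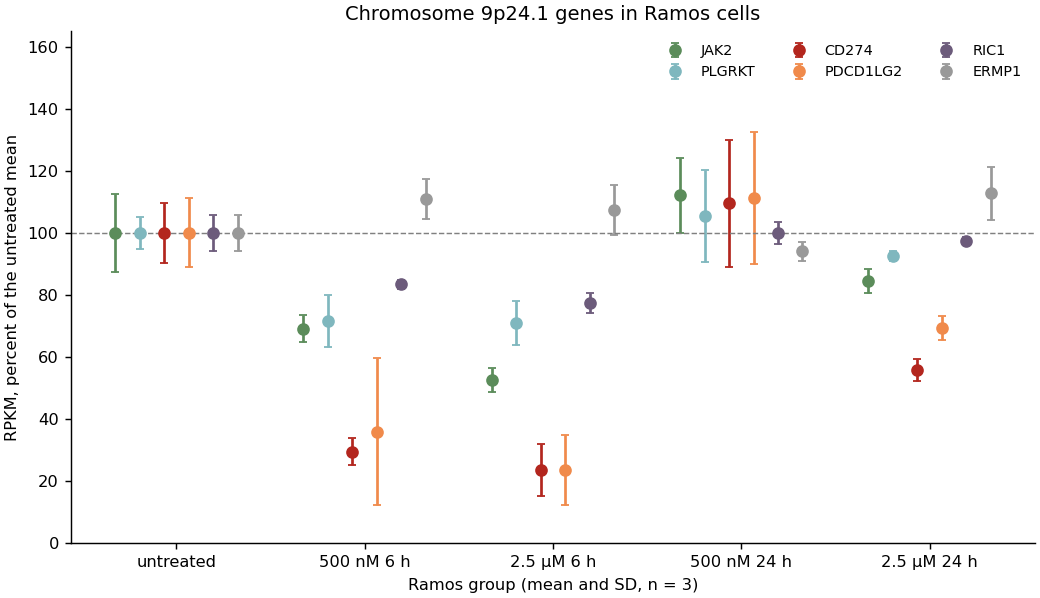
RPKM of CD274 and 5 of its 9p24.1 neighbors in the 5 groups of Ramos cells, as percent of the untreated mean of each gene (points, group means; bars, SD, n = 3), with genes from left to right in their order on the chromosome. At 6 h CD274 is at 29.4% and 23.4%, PDCD1LG2 at 35.9% and 23.4%, JAK2 at 69.05% and 52.5%, PLGRKT at 71.45% and 70.8%, RIC1 at 83.4% and 77.4% and ERMP1 at 110.77% and 107.3%, at 500 nM and 2.5 μM.

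The neighbors returned with CD274. From 6 to 24 h in Ramos cells JAK2 rose by 0.67 and 0.66 (adjusted p = 0.000515 and 0.000295), PLGRKT by 0.54 and 0.37 (adjusted p = 0.00702 and 0.00668) and RIC1 by 0.26 and 0.33 (adjusted p = 0.00455 and 0.000914) at the lower and higher dose. At 24 h against untreated cells 0 of 8 genes of the list tested were called at 500 nM, and at 2.5 μM the 1 call of 8 was CD274 itself. Few genes were called there at all, 0.0146% and 4.61% of those tested. JAK2 then stood at 84.45% ± 3.87 of its untreated mean, with overlapping ranges. The PLGRKT rise at 500 nM was lost without the filter and that of RIC1 at 500 nM after rescaling to equal sums. In HCT116 cells JAK2 had 3.25 ± 0.285 RPKM untreated and 2.50 to 3.29 RPKM as group means under Omomyc, none of which passed the test. Of the 5 genes of the list tested there, 2 and 1 fell at 6 h at 2 and 10 μM, and 1 and 0 rose at 24 h. Beside these, 47.3% and 30.0% of all genes were called at 6 h and 27.3% and 35.2% at 24 h.

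CD274 missed the threshold against untreated cells in all 4 HCT116 groups of the fit reported. Untreated libraries had 1.13, 0.605 and 0.617 RPKM, with replicate 1 above the other two. At 2 μM there were 0.755, 0.920 and 0.817 RPKM at 6 h and 1.36, 1.45 and 1.17 RPKM at 24 h. At 10 μM there were 1.65, 1.60 and 1.03 RPKM at 6 h and 1.04, 1.11 and 1.91 RPKM at 24 h. The log2 differences from untreated cells were 0.07 and 0.59 at 6 h (adjusted p = 0.777 and 0.0784) and 0.53 and 0.52 at 24 h (adjusted p = 0.0576 and 0.0955), at 2 and 10 μM. The 24 h libraries at 2 μM did not overlap the untreated ones, and the other 3 groups did. For this gene the paper reports significant downregulation by RT-PCR in the same line, at the higher dose and later time with ProteoJuice. The RPKM means at 10 μM for 24 h lay in the opposite direction, at 1.35 against 0.785 RPKM in untreated HCT116 cells. That difference missed the threshold, and why the measurements differ was not tested. Without untreated replicate 1 the 24 h differences were 0.71 and 0.71 with adjusted p of 0.0225 and 0.0483. Without replicate 3 of 10 μM at 6 h, the library with the high RPKM sum, the 6 h difference at 10 μM was 0.75 (adjusted p = 0.0177). With all libraries it also passed after median-ratio scaling (0.68, adjusted p = 0.0367) and with all groups of the line in 1 fit (0.59, adjusted p = 0.0270). At 2 μM CD274 rose from 6 to 24 h by 0.45 (adjusted p = 0.0374), a call that was lost in 5 of 9 alternatives and in 4 of 6 fits with a library left out.

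The response of CD274 differed between the lines in each of the 3 contrasts of treatment effects that were fitted. The change in HCT116 minus the change in Ramos cells was 1.31 ± 0.26 (SE, adjusted p = 0.00498) at 24 h for the highest dose of each line, 10 and 2.5 μM. It was 1.31 ± 0.20 (adjusted p = 0.0023) at 24 h and 1.98 ± 0.30 (adjusted p = 0.000386) at 6 h for the nearly matched doses of 2 and 2.5 μM. These kept their calls in all 10 alternatives and without any 1 of the 12 libraries of each fit. Over these contrasts 2 of 4, 1 of 4 and 1 of 4 members tested were called, CD274 in each, where 22.5%, 16.3% and 40.6% of all genes were. The lines differ in tissue, possibly in the delivery reagent and in the starting level of CD274, and these cannot be told apart from the line.

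**Figure D3:**
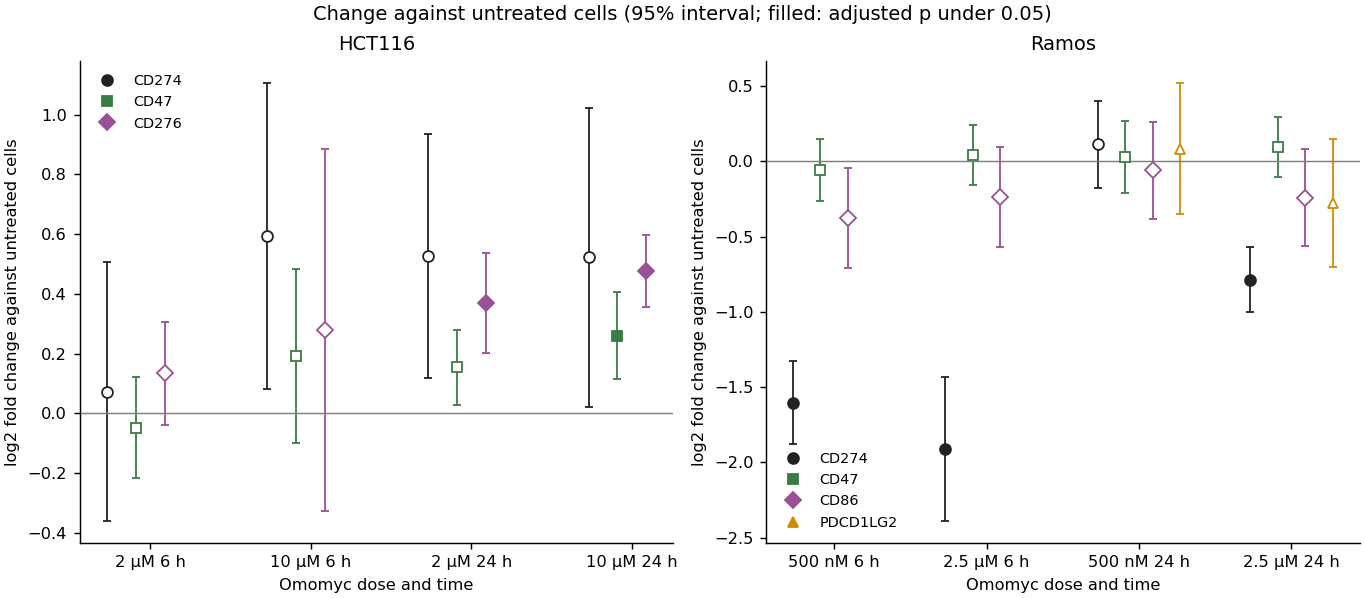
Log2 fold changes against untreated cells (points) of the members tested, with 95% intervals from limma, for each Omomyc group of HCT116 and Ramos cells. CD274 lies at -1.60, -1.91 and -0.79 in 3 Ramos groups and between 0.07 and 0.59 in the 4 HCT116 groups, and CD47 lies between -0.06 and 0.26 in all 8. Filled points passed an adjusted p under 0.05, and the vertical scales of the panels differ.

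CD47 kept within a narrow range of RPKM. Over the 15 HCT116 libraries it ranged from 23.1 to 31.4 RPKM and over the 15 Ramos libraries from 25.3 to 32.7 RPKM. In Ramos cells the log2 fold changes lay between -0.06 and 0.10, none past the threshold (adjusted p of 0.583 to 0.978), although rescaling to equal sums gave 0.30 at 2.5 μM for 24 h (adjusted p = 0.0347), where that scaling moves the median of all genes to 0.24. Their 95% intervals lay within -0.27 and 0.30. In HCT116 cells, 25.4, 25.9 and 23.2 RPKM in untreated cells stood against 25.8, 23.1 and 23.1 at 2 μM and 24.0, 31.4 and 30.3 at 10 μM for 6 h. At 24 h there were 27.5, 27.8 and 27.7 RPKM at 2 μM and 31.3, 30.4 and 27.8 RPKM at 10 μM, all 6 above the untreated range. CD47 rose at 10 μM for 24 h by 0.26 ± 0.07 (SE, adjusted p = 0.0126), a fold of 1.20. At 2 μM for 24 h the difference of 0.15 missed the threshold (adjusted p = 0.0673). At 2 μM for 6 h the difference of -0.05 (adjusted p = 0.627) became -0.38 (adjusted p = 0.00927) after rescaling to equal sums, where the median of all genes is -0.42. The same scaling gave CD47 an interaction between the lines at 6 h of -0.56 (adjusted p = 0.00553), which was -0.09 (adjusted p = 0.590) as deposited. The call at 10 μM for 24 h was lost after rescaling to equal sums (0.08, adjusted p = 0.604), with all groups of the line in 1 fit (adjusted p = 0.0760) and without untreated replicate 3 (0.21, adjusted p = 0.0547). From 6 to 24 h at 2 μM CD47 rose by 0.20 (adjusted p = 0.0482), which was lost in 6 of 10 alternatives and in 5 of 6 fits with a library left out. CD47 and CD274 were the 2 of 3 members called between these times at 2 μM, where 40.8% of genes were, and at 10 μM 0 of 3 were, none at an unadjusted p under 0.05, where 7.86% of genes were.

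Partners of CD47 rose in HCT116 cells at 6 h. THBS1, its secreted ligand, had 4.48, 3.72 and 4.02 RPKM in untreated cells. At 6 h it had 77.6, 47.7 and 65.8 RPKM at 2 μM and 60.3, 90.3 and 49.7 RPKM at 10 μM. It rose by 3.79 ± 0.15 (SE, adjusted p = 1.2e-06) and 3.84 ± 0.21 (adjusted p = 0.000145) on the log2 scale. By 24 h it was back at 5.03 ± 0.640 and 4.80 ± 0.781 RPKM (SD, n = 3), with adjusted p against untreated cells of 0.0932 and 0.228 from limma. SIRPA, the receptor usually found on macrophages, had 5.76 ± 0.613 RPKM in untreated HCT116 cells, and 7.58 ± 0.966 and 8.07 ± 1.16 RPKM at 6 h. Its log2 fold changes of 0.37 and 0.45 passed the test (adjusted p = 0.0263 and 0.0453) but not without the filter or after rescaling to equal sums, and equal sums left 0.05 and -0.0091. Both calls were also lost in most fits with a library left out, and that at 10 μM without the variance trend (adjusted p = 0.0504). At 24 h SIRPA had 6.43 ± 0.168 RPKM at 2 μM and 7.48 ± 1.07 RPKM at 10 μM. The latter was called too (log2 0.35), but not without the filter or after rescaling to equal sums (adjusted p = 0.134 and 0.329). In Ramos cells THBS1 reached at most 0.0244 RPKM and SIRPA at most 0.0077 RPKM. QPCTL, the glutaminyl cyclase that modifies CD47 so that SIRPA can bind it, rose in HCT116 cells from 3.42 ± 0.488 to 5.64 ± 0.277 RPKM at 10 μM for 24 h (log2 0.66, adjusted p = 0.00161) and to 4.43 ± 0.250 RPKM at 2 μM for 24 h (0.34, adjusted p = 0.0465). Ramos cells had 9.79 ± 1.20 RPKM of QPCTL untreated and 13.6 ± 0.271 and 13.2 ± 1.27 RPKM at 500 nM and 2.5 μM for 6 h.

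**Figure D4:**
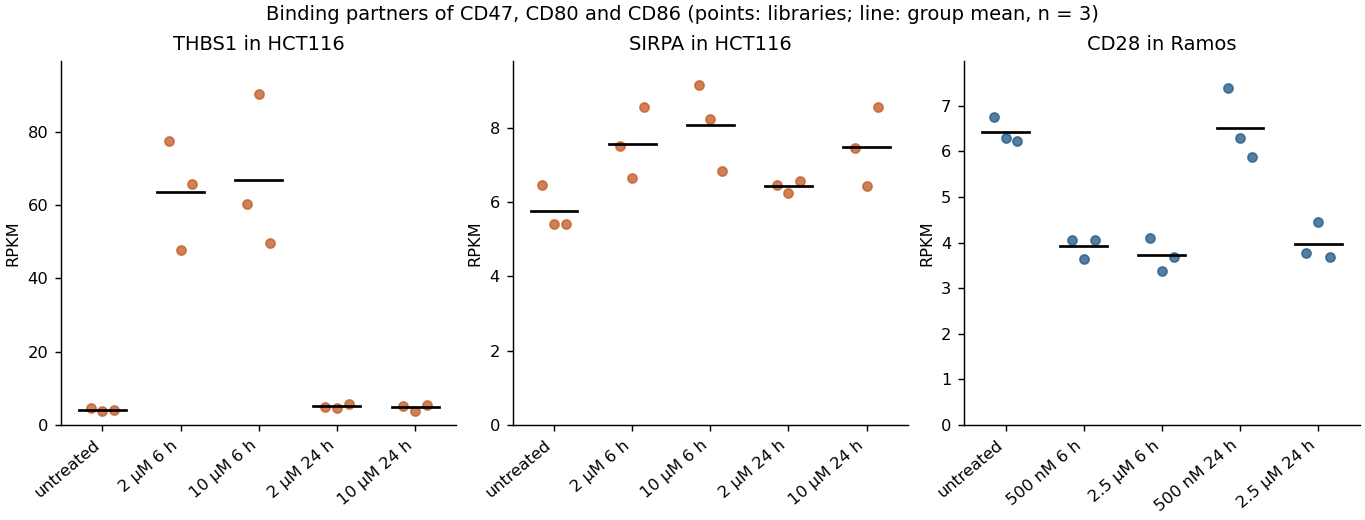
RPKM of THBS1 and SIRPA, which bind CD47, in HCT116 cells and of CD28, which binds CD80 and CD86, in Ramos cells, by group (points, libraries; lines, means, n = 3). THBS1 goes from a mean of 4.07 RPKM to 63.7 and 66.8 at 6 h and back to 5.03 and 4.80 at 24 h. CD28 is lower at 3.92, 3.72 and 3.97 RPKM in 3 groups and at 6.52 RPKM at 500 nM for 24 h.

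CD276 rose in HCT116 cells at 24 h. Untreated libraries had 24.4, 23.8 and 23.0 RPKM. At 24 h there were 29.6, 28.4 and 34.6 RPKM at 2 μM and 31.6, 34.1 and 33.8 RPKM at 10 μM, all above the untreated range. The log2 fold changes were 0.37 ± 0.07 (SE, adjusted p = 0.0075) and 0.48 ± 0.05 (adjusted p = 0.000233), folds of 1.29 and 1.39. CD276 was the 1 of 3 members called at 2 μM and, with CD47, one of 2 of 3 at 10 μM, where 27.3% and 35.2% of all genes were called. At 6 h there were 25.9, 24.0 and 28.5 RPKM at 2 μM and 31.8, 41.3 and 18.3 RPKM at 10 μM. The last is the library with the high RPKM sum. With it, the log2 difference at 10 μM for 6 h was 0.28 (95% interval -0.33 to 0.89, adjusted p = 0.451), and without it 0.60 (adjusted p = 0.00198). At 6 h 0 of 3 members passed at either dose, with 0 and 1 (CD274) at an unadjusted p under 0.05, where 47.3% and 30.0% of all genes passed at 2 and 10 μM. The median of all genes was -0.12 and -0.11 in these comparisons. After median-ratio scaling CD276 passed at 2 μM for 6 h (0.28, adjusted p = 0.0105). The calls at 24 h did not survive a fit of all groups of the line together (adjusted p = 0.272 and 0.112), and that at 2 μM was also lost after rescaling to equal sums (0.22, adjusted p = 0.0853).

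CD47 and CD276, the highest members in HCT116 cells, had ranges that overlapped in untreated cells and separated at 24 h. Untreated means were 24.8 ± 1.47 RPKM for CD47 and 23.7 ± 0.699 RPKM for CD276, with overlapping ranges. At 24 h CD276 stood above CD47 with no overlap, at 30.9 ± 3.30 against 27.6 ± 0.143 RPKM at 2 μM and at 33.2 ± 1.38 against 29.8 ± 1.80 RPKM at 10 μM. Doses of 2 and 10 μM did not separate any member at either time, with 0 of 3 called at 6 h and at 24 h beside 0.00% and 0.180% of all genes. At an unadjusted p under 0.05 there was 1 member at 6 h, CD274 with 0.52 (95% interval 0.08 to 0.96, adjusted p = 0.574), and 0 at 24 h, and 1242 of 14601 genes at 6 h. In Ramos cells CD276 was listed at 0 in 10 of 15 libraries and reached at most 0.0468 RPKM. The change of CD276 at 24 h at the highest doses, HCT116 minus Ramos, was 0.41 ± 0.09 (SE, adjusted p = 0.00872), and it did not pass at a pseudocount of 0.1 (0.21, adjusted p = 0.466), after rescaling to equal sums (0.23, adjusted p = 0.115) or with all groups in 1 fit (adjusted p = 0.226). With CD276 at or near 0 in Ramos cells, nearly all of this contrast is the difference within HCT116 cells.

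CD86 and its receptor CD28 were both found in Ramos cells. CD86 had 6.68, 6.91 and 4.59 RPKM in untreated cells, with replicate 3 under the other two. It had 4.32, 4.26 and 4.91 RPKM at 500 nM and 4.69, 5.40 and 4.92 RPKM at 2.5 μM for 6 h. At 24 h it had 5.62, 5.89 and 5.60 RPKM at 500 nM and 4.90, 5.19 and 4.83 RPKM at 2.5 μM. The log2 differences from untreated cells were -0.37, -0.23, -0.06 and -0.24 in that order, none past the threshold (adjusted p = 0.0997, 0.268, 0.968 and 0.374). Without untreated replicate 3, 3 of the 4 were called, at -0.55 (adjusted p = 0.0101), -0.41 (adjusted p = 0.0200) and -0.41 (adjusted p = 0.0409), and that at 500 nM for 24 h was not. With all libraries, that at 500 nM for 6 h was also called with all groups of the line in 1 fit (adjusted p = 0.0235). From 6 to 24 h CD86 rose by 0.31 ± 0.09 (SE, adjusted p = 0.0329) at 500 nM, a call lost in 4 of 10 alternatives and in 5 of 6 fits with a library left out, and at 2.5 μM the difference was -0.01 (adjusted p = 0.963). With CD274 it made 2 of 3 members called between the times at 500 nM and CD274 alone 1 of 3 at 2.5 μM, where 25.4% and 23.0% of all genes were. In untreated Ramos cells CD274 stood above CD86 without overlap. At 6 h CD86 stood above CD274 at both doses without overlap, and at 2.5 μM for 24 h their ranges overlapped.

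CD28, the activating receptor for CD80 and CD86 that is best known on T cells, had 6.76, 6.29 and 6.23 RPKM in untreated Ramos cells and 0 in HCT116 cells. The T cell markers CD3D, CD3E, CD3G, CD2 and CD8A together reached at most 0.980 RPKM in any library. CD28 had 4.06, 3.64 and 4.05 RPKM at 500 nM for 6 h and 4.11, 3.37 and 3.68 RPKM at 2.5 μM for 6 h. It fell by 0.65 and by 0.72 on the log2 scale (adjusted p = 0.0016 and 0.00112), all 6 libraries being under the untreated ones. At 24 h it had 7.40, 6.29 and 5.88 RPKM at 500 nM (log2 0.01, adjusted p = 0.990) and 3.76, 4.46 and 3.68 RPKM at 2.5 μM (-0.64, adjusted p = 0.0148, but 0.0704 without the filter and 0.0602 without the variance trend). CD80 lay under the filter against untreated cells. It had 0.197, 0.325 and 0.590 RPKM untreated and 0.756, 0.219 and 0.0763 RPKM at 500 nM for 6 h, a spread that covers the other groups. At 2.5 μM it had 0.123, 0.198 and 0.191 RPKM at 6 h and 0.469, 0.550 and 0.579 RPKM at 24 h, a rise of 0.62 (95% interval 0.40 to 0.84, adjusted p = 0.0157) in the fit without a filter. CD80 overlaps TIMMDC1 on the opposite strand, and their reads cannot be told apart where strand was not used.

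Genes of the interferon pathway that acts on CD274 were lower in the same Ramos groups. Of 13 interferon gamma signaling genes tested (receptor chains, JAK kinases with JAK2 among them, STAT and IRF factors, 14 in the list), 8 fell and 0 rose at 500 nM for 6 h and 7 fell and 0 rose at 2.5 μM for 6 h. The medians were -0.27 and -0.26, against 0.02 and 0.03 over all genes. In these groups 23.6% and 27.9% of all genes were called, with 1325 of 13614 and 1449 of 13595 falling. IRF1, a factor of that pathway that acts on CD274, did not pass (0.0068 with adjusted p = 0.957 and 0.18 with adjusted p = 0.0926). At 24 h 0 of 13 were called at 500 nM, and at 2.5 μM IRF9 and STAT2 fell by 0.64 and by 0.27 (adjusted p = 0.0269 and 0.0274), which was lost without the filter or the variance trend. At 6 h, rescaling to equal sums left 4 falls and 1 rise at 500 nM and 5 falls and 2 rises at 2.5 μM. Of 14 interferon target genes tested out of 22, 11 fell at 500 nM and 7 at 2.5 μM for 6 h, and none rose. Their medians were -0.78 and -0.60. By the rule for named genes WARS, the tryptophanyl-tRNA synthetase, is given. It went from 226 RPKM untreated to 149 and 132 RPKM at 6 h (log2 -0.60 and -0.77, adjusted p = 0.000211 and 3.38e-05). At 24 h 0 of 14 targets were called at 500 nM and 1 of 14, WARS, at 2.5 μM (-0.39, adjusted p = 0.00499). The share of all genes called at 24 h was 0.0146% and 4.61%. From 6 to 24 h 13 of 14 rose at 500 nM and 4 of 13 at 2.5 μM, where 1622 of 13611 and 1720 of 13564 genes rose.

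In HCT116 cells the same lists split. Of 14 signaling genes, 3 rose and 6 fell at 2 μM for 6 h, 1 and 6 at 10 μM for 6 h, 1 and 3 at 2 μM for 24 h and 2 and 4 at 10 μM for 24 h. Of all genes 47.3%, 30.0%, 27.3% and 35.2% were called, and at 6 h falls outnumbered rises among them too, by 4633 to 2251 and 3132 to 1307. The medians of the list were -0.26, -0.17, -0.02 and -0.07, against -0.12, -0.11, 0.04 and 0.02. At the last, STAT3 and JAK1 fell by 0.56 and 0.42 (adjusted p = 0.000235 and 0.000427). Of the targets tested, 2 of 11 rose and 6 fell at 2 μM for 6 h, and of 12 tested 0 rose and 4 fell at 10 μM for 6 h and 1 rose and 2 fell at each dose at 24 h. At 10 μM for 24 h UBE2L6 fell by 0.51 and OAS3 by 0.39 while ISG15 rose by 0.45. MHC class I presentation, whose products T cells read beside the checkpoint ligands, was mostly higher at 24 h, when CD276 was too. Of 17 genes tested 11 rose and 0 fell at 2 μM, and 13 rose and 1 fell at 10 μM, with medians of 0.24 and 0.38 against 0.04 and 0.02 over all genes. The chaperone CALR went from 207 to 431 RPKM (log2 1.06, adjusted p = 1.66e-05) and the immunoproteasome subunit PSMB10 from 21.7 to 35.2 RPKM (0.68), while PSMB9 fell by 0.56. After rescaling to equal sums, 2 rose and 1 fell at 2 μM and 4 rose and 1 fell at 10 μM. In Ramos cells 8 of 18 rose and 2 fell at 500 nM for 6 h, 7 rose and 3 fell at 2.5 μM for 6 h, and 0 were called at 24 h. The shares of all genes called there were 23.6% and 27.9% at 6 h and 0.0146% and 4.61% at 24 h.

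Other ligands of immune receptors, 18 in the list, moved in both directions in HCT116 cells. Of 11 tested, 4 rose and 2 fell at 2 μM for 6 h, 3 and 2 at 10 μM for 6 h, 5 and 3 at 2 μM for 24 h and 5 and 2 at 10 μM for 24 h, where 47.3%, 30.0%, 27.3% and 35.2% of all genes were called. Their medians were 0.30, 0.44, 0.26 and 0.24, against -0.12, -0.11, 0.04 and 0.02 over all genes. TNFSF18, the ligand of GITR, went from 5.53 ± 0.406 to 1.04 ± 0.255 RPKM at 10 μM for 24 h (log2 -1.98, adjusted p = 2.06e-05). CD24, a ligand of a macrophage Siglec, went from 12.1 ± 0.964 to 6.01 ± 0.528 RPKM (-0.96, adjusted p = 7.75e-05). TNFSF9, the ligand of TNFRSF9, rose from 9.24 ± 0.699 to 15.2 ± 0.0547 RPKM (0.69, adjusted p = 0.000125). In Ramos cells 1 of 10 rose and 4 fell at 500 nM and 0 rose and 6 fell at 2.5 μM for 6 h. Calls over all genes were 23.6% and 27.9% there, and 0.0146% and 4.61% at 500 nM and 2.5 μM for 24 h. At 24 h 0 of 12 were called at 500 nM, and 3 of 11, CD24, CD58 and CD40, fell at 2.5 μM by 0.57, 0.40 and 0.31 (adjusted p = 0.0269, 0.0401 and 0.0130). After rescaling to equal sums that last comparison had 4 rises and 1 fall in the list, and without the variance trend none of the 3 genes passed.

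Genes that mature or stabilize CD274 and CD47 protein changed in both directions. Of 10, all tested in HCT116 cells, 1 rose and 3 fell at 2 μM for 6 h, 0 and 2 at 10 μM for 6 h, 3 and 3 at 2 μM for 24 h and 4 and 2 at 10 μM for 24 h, beside 47.3%, 30.0%, 27.3% and 35.2% of all genes called. The medians were -0.05, 0.01, -0.02 and -0.00016. CMTM6, which protects CD274 protein from degradation, had 50.7 RPKM in untreated HCT116 cells and fell by 0.19 at 6 h and by 0.22 at 24 h with 2 μM (adjusted p = 0.0324 and 0.0123). In Ramos cells it had 37.0 RPKM untreated and fell by 0.27 at 2.5 μM for 6 h (adjusted p = 0.00757). There, of 8 tested, 3 rose and 0 fell, 2 and 1, 0 and 0, and 1 and 0 in the 4 Omomyc groups, taken as 500 nM and 2.5 μM at 6 h and then at 24 h. In the same order, 23.6%, 27.9%, 0.0146% and 4.61% of all genes were called. B3GNT3, a glycosyltransferase of CD274, and OTUB1, a deubiquitinase, rose by 0.34 and 0.29 at 10 μM for 24 h in HCT116 cells, but not after rescaling to equal sums or with all groups in 1 fit.

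Transcription regulators linked to CD274 or CD47 numbered 14, all tested. In HCT116 cells 6 rose and 3 fell at 2 μM for 6 h, 2 and 4 at 10 μM for 6 h, 1 and 6 at 2 μM for 24 h, and 0 and 7 at 10 μM for 24 h, beside the same shares of all genes, 47.3%, 30.0%, 27.3% and 35.2%. The medians were 0.19, -0.05, -0.06 and -0.21. FOS, a subunit of AP-1, went from 107 to 8.48 RPKM (log2 -3.58, adjusted p = 2.51e-08) at the last, and ATF3 fell by 0.61. At 6 h ATF3 was far higher instead, with means of 73.5 and 48.1 RPKM at 2 and 10 μM against 7.72 RPKM untreated. In Ramos cells 0 rose and 3 fell at 500 nM and 1 rose and 5 fell at 2.5 μM for 6 h, 0 were called at 500 nM for 24 h, and at 2.5 μM for 24 h MYC rose by 0.27 (adjusted p = 0.0424) and NFKB1 fell by 0.26 (adjusted p = 0.0248), both lost in 5 of 6 fits with a library left out. Shares of all genes called in these groups, in that order, were 23.6%, 27.9%, 0.0146% and 4.61%. NFKB1, an NF-κB subunit, also fell at 6 h, by 0.38 and by 0.51 (adjusted p = 0.00122 and 0.0002). MYC had means of 140 RPKM in untreated Ramos cells and 144 and 178 RPKM at 500 nM and 2.5 μM for 6 h. Untreated HCT116 cells had 118 RPKM of MYC. With 2 and 10 μM it had 156 ± 2.88 and 153 ± 30.3 RPKM (SD) at 6 h and 95.7 and 95.9 RPKM at 24 h. Among receptors and partners of the members, 7 in the list, 3 were tested in each line. In HCT116 cells 2 rose at each dose at 6 h, 0 at 2 μM and 1 at 10 μM for 24 h, and none fell. In Ramos cells CD28 was the 1 that fell at 500 nM for 6 h and at 2.5 μM at both times.

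The genes whose log2 values followed a member most closely over the 15 libraries of a line, by Pearson correlation, are given as a description, since the libraries of a group share its treatment. For CD274 in Ramos cells these were NABP1 (0.977), PLEK (0.973) and NEMP1 (0.971), out of 10697 genes compared, and for CD86 HOXC4 (0.867), RPL11P3 (0.858) and MTMR8 (0.843). For CD276 in HCT116 cells they were BSG (0.974), UNC93B1 (0.973) and CTSD (0.969), out of 11678. CD47 had ATL2 (0.909) and SLC35A3 (0.902) among its closest in HCT116 cells and MBD4 (0.849), CAND1 (0.843) and MRPS5 (0.818) in Ramos cells. RPL11P3 is a pseudogene whose reads can be shared with other copies. Between members, CD274 and CD276 had 0.614 in HCT116 cells, and in Ramos cells CD274 had 0.616 with CD86 and 0.107 with CD47.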

How the data were processed

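The authors deposited RPKM for 57992 genes in 30 libraries of total RNA depleted of ribosomal RNA. Their processing notes name RSEM without a version. The aligner, genome build, annotation and counting strand are not given in the sources used here. The values are fractional, so reads could not be recovered, depth is unknown and no count model was used. GENCODE 29 (GRCh38) gave symbols and positions for 57388 genes and none for 604.

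Groups follow the labels. Log2(RPKM + 0.5) was fitted with limma 3.58.1 in R 4.3.3 (eBayes with a trend) on the libraries compared, keeping genes that averaged 0.5 RPKM or more in them. A call was a Benjamini-Hochberg adjusted p under 0.05 over all genes tested. The 20 comparisons were 8 against untreated cells, 4 between times, 4 between doses, 1 between the untreated lines and 3 interactions, with 68 tests of members. Members were also compared by two-sided exact permutation (scipy 1.17.1, Python 3.11.15). The labels do not say that replicates are separate cultures, so p-values measure the spread between these libraries, which may be technical. No pair of libraries within a group held identical values. The fit was tested on simulated data.

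The members and the 8 gene lists were chosen with earlier results of these data known. Named from a list are at most 3 genes per line, called without overlap at the highest dose for 24 h with a mean of at least 2 RPKM and the largest changes, and any receptor, partner or neighbor of a member. Some genes that meet these rules or that of likeness to a member are not reported here. As alternatives, the pseudocount was 0.1 or 1, the filter was dropped or raised to 2 RPKM, libraries were scaled by median ratio, by quantiles or to equal RPKM sums, the trend was dropped, replicate numbers entered as a block, a line's groups shared 1 fit, and each library was left out.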

Additional observations from a re-analysis of the deposited data

Results flagged for a closer look

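The effect of Omomyc on CD274 differed between the lines by a test of the difference itself. The change in HCT116 minus that in Ramos cells, on the log2(RPKM + 0.5) scale, was 1.31 (95% interval 0.74 to 1.87) at 24 h for 10 and 2.5 μM. It was 1.31 (0.87 to 1.75) at 24 h and 1.98 (1.33 to 2.64) at 6 h for 2 and 2.5 μM. In each of the 3, every Ramos library treated was under the untreated range, and 12 of the 12 fits that left out a library kept the call. The change of CD276 at 24 h for the highest doses differed by 0.41 (0.21 to 0.62), with CD276 at or near 0 in Ramos cells, and lost its call at a pseudocount of 0.1, after rescaling to equal sums and with all groups in 1 fit (adjusted p = 0.466, 0.115 and 0.226, limma).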

How the results depend on the processing

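Differences are log2 and counts are of members called. Against untreated HCT116 cells 3 calls were made, 5 with median-ratio scaling, 1 with all groups in 1 fit and 2 to 5 with a library left out (5 without untreated replicate 1, or without replicate 3 of 10 μM at 6 h). The 1 call with all groups in 1 fit was CD274 at 10 μM for 6 h, and all 3 calls of the fit reported were lost there. Against untreated Ramos cells there were 3, and 3 to 6 with a library left out (6 without untreated replicate 3, through CD86). Between times in HCT116 cells the 2 calls became 0 without the filter, with median-ratio scaling, with quantile normalization and in 1 fit, 1 at a mean of at least 2 RPKM and without the trend, and 0 to 2 with a library left out. Replicate numbers did not pair the libraries, since in 0 of 17 comparisons every same-numbered pair correlated above 0.1. With the replicate number as a block 1 call was made between times in HCT116 cells. It was CD276 at 2 μM, and neither CD274 nor CD47 kept its call. The 1 call between doses in Ramos cells became 0 without the filter and without the trend. Between untreated lines 3 became 5 without the filter, and 4 interaction calls were 4 to 7 with a library left out (7 without Ramos untreated replicate 3).

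Rescaling to equal RPKM sums moved the median of all genes to -0.42 and -0.56 in the HCT116 comparisons at 6 h and reversed small differences. In HCT116 cells against untreated cells these became -0.14 for CD274 and -0.20 for CD276 at 2 μM and -0.30 for CD47, -0.21 for CD276 and -0.0091 for SIRPA at 10 μM for 6 h, and -0.00051 for CD47 at 2 μM for 24 h. In Ramos cells they became 0.035 for CD47 at 500 nM for 6 h and 0.0033 for CD86 at 500 nM for 24 h. Between times they became 0.14 for CD274 at 10 μM in HCT116 and 0.053 for CD86 at 2.5 μM in Ramos cells, and between doses -0.0073 for CD276 in HCT116 cells at 6 h and 0.0060 for CD80 in Ramos cells at 24 h. CD47 became 0.39 between untreated lines and -0.22 and -0.30 in the interactions at 24 h, and CD276 -0.21 in that at 6 h. Median-ratio scaling gave CD47 0.094 at 2 μM for 6 h, -0.10 between times at 10 μM and 0.050 in the interaction at 6 h. Quantile normalization gave CD47 -0.0081 in Ramos cells at 2.5 μM for 6 h and -0.030 between times at 10 μM. CD274 between doses at 24 h in HCT116 cells became 0.013, 0.051 and 0.0016 with median-ratio scaling, quantile normalization and a pseudocount of 1.

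With a library left out, CD274 ranged from -0.024 to 0.26 at 2 μM for 6 h, from -0.27 to 0.048 between times at 10 μM and from -0.21 to 0.11 between doses at 24 h in HCT116 cells, and from -0.028 to 0.19 at 500 nM for 24 h in Ramos cells. CD47 ranged from -0.13 to 0.051, from -0.032 to 0.15 and from -0.056 to 0.14 in Ramos cells at 500 nM and 2.5 μM for 6 h and 500 nM for 24 h, from -0.048 to 0.14 between times at 10 μM, and from -0.052 to 0.13 in the interaction of 2 and 2.5 μM at 24 h. CD276 ranged from -0.13 to 0.45 between times at 10 μM (-0.13 without replicate 3 at 6 h) and from -0.11 to 0.47 between doses at 6 h. In Ramos cells CD86 ranged from -0.23 to 0.037 at 500 nM for 24 h and from -0.048 to 0.043 between times at 2.5 μM, and PDCD1LG2 from -0.0070 to 0.14 at 500 nM for 24 h. Of these reversed differences, that of SIRPA alone was called in the fit reported. The cause of these changes was not tested. Values under about 0.5 RPKM, as for PDCD1LG2 and CD80, are limited by the unknown depth.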
